A study of Mus musculus with 10 samples.

Results

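Among the RNAs measured in mouse eyeballs, miR-204 and miR-211 with Trpm3 make up a set of 4 features: the mature miRNAs mmu-miR-204-5p, mmu-miR-204-3p and mmu-miR-211-5p, of 1978 in the miRNA table, and the gene Trpm3, of 24736 in the mRNA table. They were taken by name, and all 4 passed the filter on low counts, which left 641 miRNAs and 18988 genes to test. The eyeballs were those of female mice of the outbred Kunming stock (KM), labelled 4 weeks old, with day 14 in the sample titles. The control group was kept in natural light, and the other group under a blue lamp of 18 W inside a dark container. Each assay had 2 control and 3 blue light libraries, lettered from A within a group. Since nothing in the labels assigns the libraries of a group to different animals, the spread behind each p-value is that of these samples only and may be technical.

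MicroRNAs are short RNAs cut from a hairpin precursor. They pair with messenger RNAs mainly through the seed, bases 2 to 8 from the 5′ end, and lower the output of those messengers. miR-204 and miR-211 are known from the retinal pigment epithelium, the lens and the ciliary body, where they help to keep epithelial cells differentiated. miR-204 lies in an intron of Trpm3, which encodes a calcium-permeable cation channel opened by heat and by the neurosteroid pregnenolone sulfate. miR-211 lies in an intron of Trpm1, which encodes the transduction channel of ON bipolar cells and is also active in pigment cells.

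The mature sequences are shown because the 5p arms share a seed and the 3p arms do not. Sequences and positions are from RefSeq (build GRCm38), 5′ to 3′, with the seed in capitals.
mmu-miR-204-5p: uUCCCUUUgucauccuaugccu
mmu-miR-211-5p: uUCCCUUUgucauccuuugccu
mmu-miR-204-3p: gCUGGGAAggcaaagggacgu
mmu-miR-211-3p: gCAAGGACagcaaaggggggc

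The 5p arms differed at 1 of 22 positions, A17U, with miR-204-5p first and positions counted from its 5′ end. A counter that allows mismatches could therefore pass reads between them, and which counter made the table is not stated in the sources used here. The 3p arms differed at 7 of 21 positions, of which U3A, G4A and A8C lie in the seed. Of the table's miRNAs, 1679 had a RefSeq sequence. mmu-miR-7670-3p was the only other one of these with the seed of the 5p arms, and it had at most 3 counts in a library. mmu-miR-7684-5p shared the seed of miR-204-3p and was at 0 in every library.

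The hairpins follow, with both mature arms in capitals, to show how each pair of arms is cut from 1 precursor.
Mir204: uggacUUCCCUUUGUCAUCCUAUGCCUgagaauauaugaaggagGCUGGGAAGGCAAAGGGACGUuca
Mir211: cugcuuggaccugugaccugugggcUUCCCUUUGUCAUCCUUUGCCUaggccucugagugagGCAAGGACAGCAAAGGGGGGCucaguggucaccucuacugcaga

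The Mir204 hairpin spans 68 bases at chr19:22750605-22750672 on the plus strand, inside the span of Trpm3 (chr19:22137797-22995410), and starts 612808 bases after the first base of that span. The Mir211 hairpin spans 106 bases at chr7:64205806-64205911, also on the plus strand, inside Trpm1 (chr7:64153835-64269772), 51971 bases after its first base. The loop between the mature arms is 17 bases in Mir204 and 15 bases in Mir211.

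Library totals ran from 8355432 to 10875487 counts for miRNA and from 87071487 to 107660103 estimated counts for mRNA. Levels below are CPM, counts scaled to a common library size, after TMM scaling, which brings the bulk of features to a common level across libraries. A log2 fold change (log2FC) is positive where blue light was higher. Its standard error (SE) and 95% interval come from edgeR's quasi-likelihood test, and adjusted p is from that test with Benjamini-Hochberg adjustment over all features of the assay. A feature was called at an adjusted p under 0.05.

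The design asks whether these miRNAs and the host gene of miR-204 differ by the light the mice were kept in. None of the 4 members was called. Beside this, 0.624% of the tested miRNAs (4, of which 0.312% were higher and 0.312% lower) and 2.22% of the tested genes (421) were called. At an unadjusted p under 0.05 edgeR held 0 of the 4 members, and DESeq2 and limma-voom called 0 of them. Over all tested features, 11.9% of miRNAs and 16.3% of genes had an unadjusted p under 0.05 in edgeR, DESeq2 called 1.72% and 9.03%, and limma-voom called 0.624% and 2.41%. After TMM scaling the largest of the 4 differences was that of miR-211-5p. It stood lower in every blue light library, as did 13.6% of all tested miRNAs. On that scaling miR-204-5p and Trpm3 each lay within 0.1 of 0 on the log2 scale. With library totals as the only scaling miR-211-5p was not the largest and its groups overlapped. The log2FC was then -0.084 for miR-211-5p, 0.21 for miR-204-5p, -0.023 for miR-204-3p and 0.13 for Trpm3.

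mmu-miR-204-5p is the main arm of the miR-204 hairpin and was among the most abundant miRNAs of the eye, at rank 11 or 12 of 1978 in every library. It was counted 212639 and 226501 times in controls A and B and 282108, 286433 and 285498 times in blue libraries A, B and C. Its level was 27193 and 25554 CPM in the controls against 25033, 26643 and 30211 CPM in the blue light libraries. The groups overlapped: blue A was the lowest of all 5 libraries and blue C the highest.

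The mean of miR-204-5p was 26374 ± 1159 CPM (SD, n = 2) in natural light and 27296 ± 2650 CPM (SD, n = 3) under blue light. The log2FC was 0.050 (SE 0.14, 95% interval -0.27 to 0.36, edgeR adjusted p = 0.901). Its sign changed to -0.029 without blue C. As CPM of the library total, with no other scaling, its level was 25449 and 23986 in the controls against 25940, 27425 and 32223 in blue libraries A, B and C. On that scale every blue light library lay above both controls and the log2FC was 0.21 (edgeR adjusted p = 0.531), while the median log2FC of all tested miRNAs was 0.17, against 0.014 after TMM scaling.

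mmu-miR-211-5p shares the seed of miR-204-5p and ranked 25 to 29. Its level was 9467 and 9995 CPM in controls A and B and 7867, 8182 and 8673 CPM in blue libraries A, B and C. All 3 blue light libraries lay below both controls, as did 13.6% of all tested miRNAs, while 14.8% lay above in the same way. Means were 9731 ± 373 CPM (SD, n = 2) and 8241 ± 406 CPM (SD, n = 3).

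The log2FC of miR-211-5p was -0.24 (SE 0.14, 95% interval -0.55 to 0.067), and it was not called (edgeR adjusted p = 0.544). As CPM of the library total the groups overlapped, with 8860 and 9382 in the controls against 8152, 8422 and 9251 in blue libraries A, B and C, and the log2FC was -0.084. Its separation of the groups was thus present after TMM scaling and absent with library totals.

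mmu-miR-204-3p, the lesser arm of the miR-204 hairpin, ranked 134 to 161. It was counted 2433 and 1984 times in controls A and B and 3387, 2164 and 1961 times in blue libraries A, B and C. The level was 311 and 224 CPM in the controls against 301, 201 and 208 CPM in the blue light libraries. Control A and blue A were high and the other 3 libraries were low, so the groups overlapped. The log2FC was -0.18 (SE 0.23, 95% interval -0.70 to 0.35, edgeR adjusted p = 0.851), and it was 0.081 without control A.

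mmu-miR-211-3p, which is not a member but completes the second hairpin, was the rarest of the 4 arms, at 40.7 and 35.3 CPM in the controls against 38.3, 44.0 and 38.5 CPM under blue light. The groups overlapped, and the log2FC was 0.085 (SE 0.19, edgeR adjusted p = 0.901), or -0.0032 without control B.

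**Figure D1:**
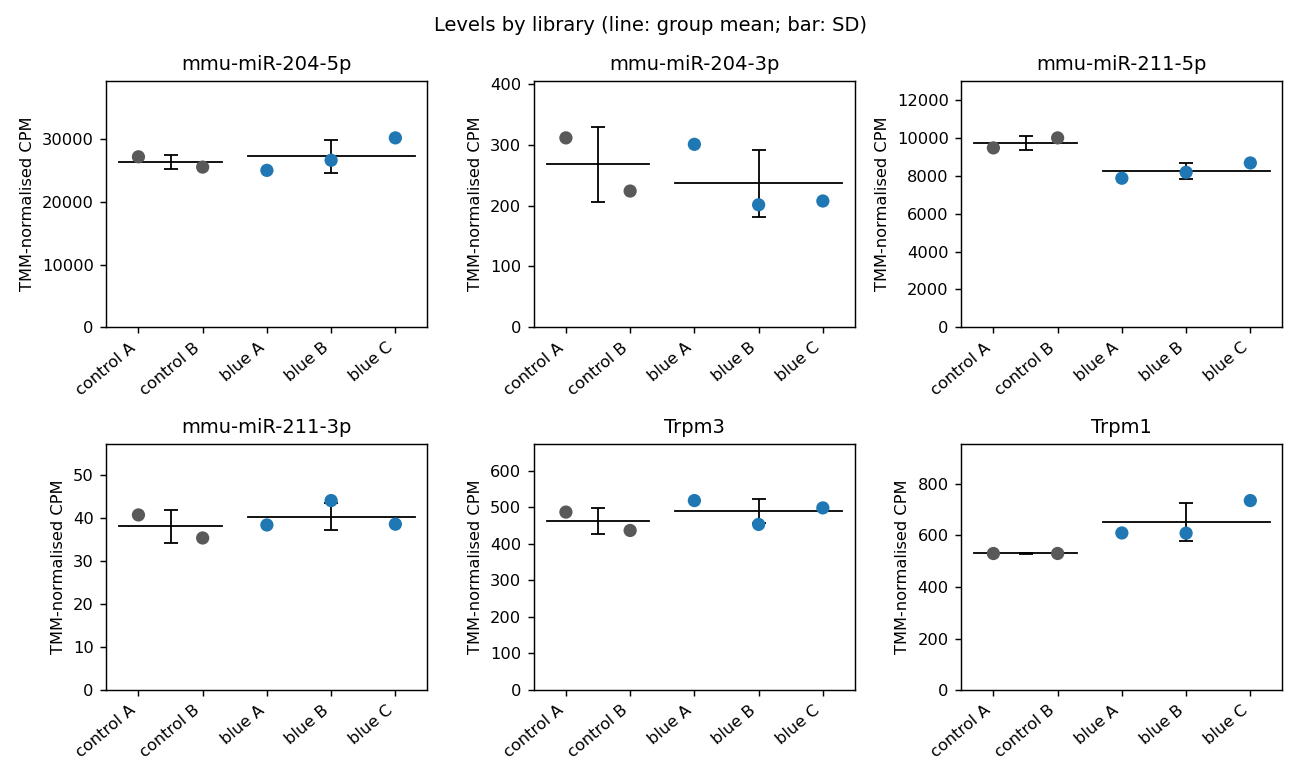
TMM-normalised CPM of both arms of miR-204 and miR-211 and of their host genes Trpm3 and Trpm1 in each library (grey control, blue blue light), with the group mean (line) and SD (bar). For miR-211-5p the blue light libraries, at 7867 to 8673 CPM, sit below the controls, for Trpm1 they sit above, and for the other 4 features the groups overlap.

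Ratios of counts within a library need no scaling between libraries, and 4 were compared by exact permutation tests. The ratio of miR-204-5p to miR-211-5p was 2.87 and 2.56 in controls A and B and 3.18, 3.26 and 3.48 in blue libraries A, B and C. Every blue light library thus held more miR-204-5p per miR-211-5p than either control. The difference was 0.29 on the log2 scale, a ratio 1.22-fold higher, with SDs of 0.12 in the controls against 0.068 under blue light. The 2-sided exact permutation p was 0.2, the smallest that 2 against 3 libraries allow, and 0.4 after Benjamini-Hochberg adjustment over the 4 ratios. Leaving out any 1 library gave differences between 0.20 and 0.37.

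As a share of all counts with this seed, miR-204-5p made up 74.2% (95% Wilson interval 74.0 to 74.3) in control A and 71.9% (71.7 to 72.0) in control B. Its share was 76.1% (76.0 to 76.2), 76.5% (76.4 to 76.6) and 77.7% (77.6 to 77.8) in blue libraries A, B and C. These intervals cover counting error only. The summed level of the 3 miRNAs with this seed was 36661 and 35550 CPM in the controls against 32900, 34825 and 38884 CPM in blue libraries A, B and C, so the sums of the groups overlapped.

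The arms of each hairpin come from 1 precursor. miR-204-5p exceeded miR-204-3p by 87.4 and 114 times in controls A and B and by 83.3, 132 and 146 times in blue libraries A, B and C. Blue A and control A had the lowest ratios, and the groups overlapped (log2 difference 0.23, 2-sided exact permutation p = 0.6, adjusted 0.6). The 3p arm was 1.13% (95% Wilson interval 1.09 to 1.18) and 0.868% (0.831 to 0.907) of the counts of both arms in control A and B. It was 1.19% (1.15 to 1.23), 0.750% (0.719 to 0.782) and 0.682% (0.653 to 0.713) in blue libraries A, B and C. Libraries of the same group thus differed by more than counting error.

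For miR-211 the 5p to 3p ratio was 233 and 283 in the controls against 205, 186 and 225 in blue libraries A, B and C. All blue light libraries were below both controls. The log2 difference was -0.33, with a 2-sided exact permutation p of 0.2 and an adjusted p of 0.4 over the 4 ratios. This ratio was added after its values were seen, so its p was not that of a planned test. The 3p counts behind it were few, 318 and 313 in the controls against 432, 473 and 364 under blue light.

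**Figure D2:**
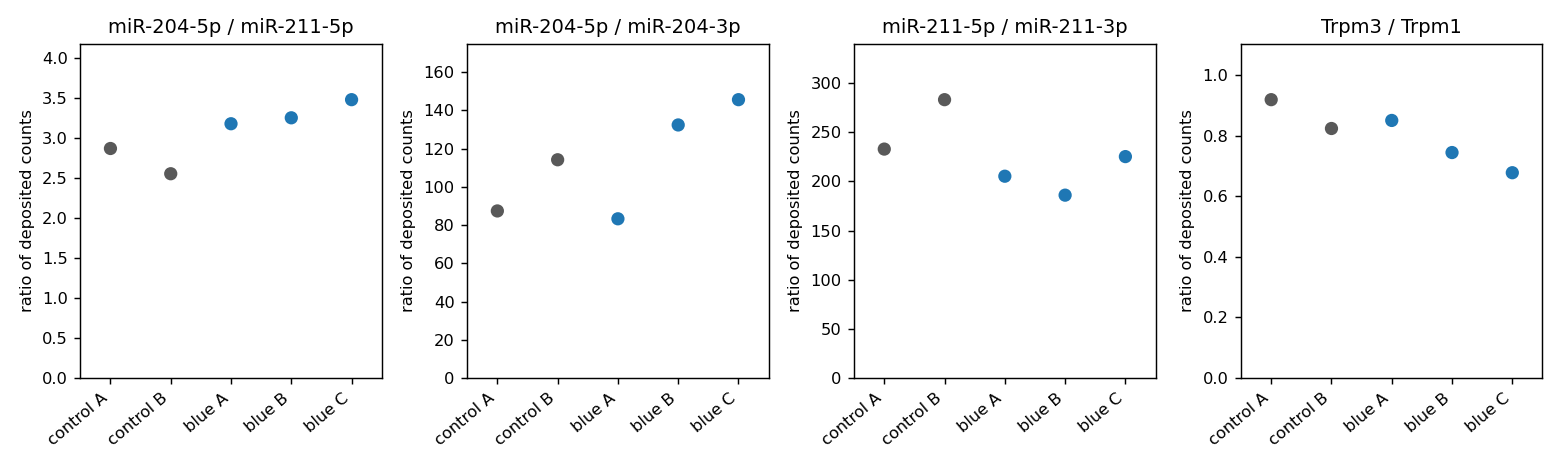
Ratios of deposited counts within each library (grey control, blue blue light), with the y axes starting at 0: miR-204-5p to miR-211-5p, the arms of each hairpin, and Trpm3 to Trpm1. The ratio of miR-204-5p to miR-211-5p is 2.56 to 2.87 in the controls against 3.18 to 3.48 under blue light.

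Trpm3, the host gene of miR-204, had estimated counts of 54154 and 35293 in controls A and B and of 52326, 48613 and 45331 in blue libraries A, B and C. Its level was 486 and 436 CPM in the controls against 518, 453 and 498 CPM under blue light. Blue A was highest and control B lowest, and blue B lay between the controls. Means were 461 ± 35.5 CPM (SD, n = 2) and 490 ± 33.4 CPM (SD, n = 3), closer together than the SD of either group. The log2FC was 0.086 (SE 0.091, 95% interval -0.14 to 0.31, edgeR adjusted p = 0.712). In a bulk eyeball sample, fewer cells of a type and less RNA per cell cannot be told apart.

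Trpm1, the host gene of miR-211, stood at 530 CPM in both controls and at 610, 609 and 735 CPM in blue libraries A, B and C. All blue light libraries lay above both controls, as did 15.6% of all tested genes, while 20.1% lay below. The log2FC was 0.30 (SE 0.11), and the gene was not called (edgeR adjusted p = 0.244, DESeq2 adjusted p = 0.0841). Grm6, the glutamate receptor that gates this channel in ON bipolar cells, was at 76.4 and 73.6 CPM against 74.6, 92.0 and 94.1 CPM.

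The host and the main arm of miR-211 therefore lay on opposite sides of 0 after TMM scaling within each assay, Trpm1 at 0.30 and miR-211-5p at -0.24. For miR-204 both lay near 0, Trpm3 at 0.086 and miR-204-5p at 0.050. Whether a host differed from its miRNA was not tested across the assays, because the labels do not say that the RNA of both libraries came from the same eyes. The ratio of Trpm3 to Trpm1 estimated counts, not corrected for transcript length, was 0.918 and 0.823 in the controls against 0.850, 0.744 and 0.677 in blue libraries A, B and C. The groups overlapped (log2 difference -0.21, 2-sided exact permutation p = 0.4, adjusted 0.533).

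The mRNA table also lists the hairpin genes as rows of their own. Such rows lie within the host's span, so their fragments cannot be told apart from unspliced host RNA, and they were at low values. Mir204 had 157 and 79 estimated counts in controls A and B and 181, 195 and 157 in blue libraries A, B and C, which is 1.41 and 0.976 CPM against 1.79, 1.82 and 1.72 CPM. Every blue light library lay above both controls, as was so for 15.6% of all tested genes. Mir204 was not called (log2FC 0.57, SE 0.27, edgeR adjusted p = 0.376). Its log2FC ran from 0.33 with control B left out to 0.89 with control A left out. Mir211 was at 0.602 and 0.766 CPM against 0.673, 0.773 and 0.890 CPM, with groups that overlapped (log2FC 0.19, edgeR adjusted p = 0.845).

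**Figure D3:**
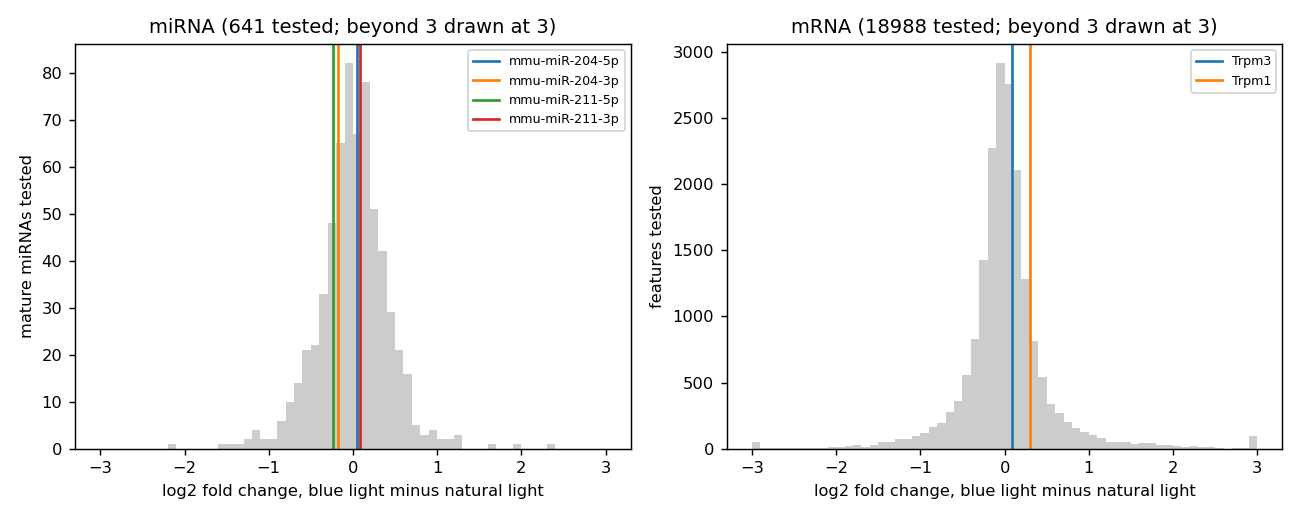
Histograms of the log2FC of all 641 tested miRNAs (left) and 18988 tested genes (right), with the arms of miR-204 and miR-211 and the host genes Trpm3 and Trpm1 as vertical lines. All lines lie in the central bulk, between -0.24 and 0.30.

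The TRPM family holds 8 channel genes, all of them tested. None was called by edgeR, where 3 had an unadjusted p under 0.05, and DESeq2 and limma-voom called 0; the median log2FC was 0.060, against -0.0056 over all tested genes. Trpm2, a calcium channel opened by ADP-ribose under oxidative stress, was at 4.70 and 6.39 CPM in the controls against 7.47, 8.32 and 7.88 CPM under blue light (log2FC 0.51, edgeR adjusted p = 0.240). Trpm7, a magnesium-permeable channel fused to a kinase, was at 171 and 155 CPM against 147, 137 and 142 CPM (log2FC -0.20, edgeR adjusted p = 0.287). Trpm1 and Trpm2 were higher and Trpm7 was lower without overlap of the groups. Over all tested genes, 15.6% lay higher and 20.1% lower in the same way, and 16.3% had an unadjusted p under 0.05 in edgeR.

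For Trpm3, Trpm4, Trpm5, Trpm6 and Trpm8 the groups overlapped. Trpm4 and Trpm6 had log2FC of 0.034 and -0.039, and Trpm6, a magnesium channel of epithelia, was highest in blue A, at 21.6 CPM. Trpm5 and Trpm8 were near the low end, at most 1.57 and 0.386 CPM in any library.

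The 3 nearest protein-coding genes on each side of Trpm3 were measured too. Of these 6, edgeR called 0, while 2 had an unadjusted p under 0.05, and limma-voom called 0 and DESeq2 called 1, Tmem2 (adjusted p = 0.0323). Klf9, a zinc finger factor 146 kb beyond the end of Trpm3, and Abhd17b, a depalmitoylating enzyme 452 kb before its start, were lower in every blue light library (log2FC -0.31 and -0.38, edgeR adjusted p = 0.328 and 0.202). Tmem2 (now Cemip2), which takes part in hyaluronan breakdown, was 279 kb before the start and higher in every blue light library (log2FC 0.44, edgeR adjusted p = 0.196). For 1110059E24Rik, Smc5 and Mamdc2 the groups overlapped, with log2FC of -0.30, -0.18 and 0.048. The neighbours of Trpm3 thus lay on both sides of 0. For comparison, 16.3% of all tested genes had an unadjusted p under 0.05 in edgeR, and DESeq2 called 9.03%. Every blue light library lay above both controls for 15.6% of all tested genes and below for 20.1%.

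A list of 22 genes reported elsewhere as targets of miR-204 or miR-211 was set beside the miRNAs; it was compiled from general knowledge and not from a target search. None was called in edgeR, where 2 had an unadjusted p under 0.05. DESeq2 called 2, Tgfbr1 and Ntrk2 (adjusted p = 0.000479 and 0.0212), where 9.03% of all tested genes were called, and limma-voom called 0. The share of the list at an unadjusted p under 0.05 was lower than the 16.3% of all tested genes. Of the 22, 15 had a positive and 7 a negative log2FC, with a median of 0.12 against -0.0056 over all tested genes. In 3 of them every blue light library was above both controls and in 2 below, against 15.6% and 20.1% of all tested genes.

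Tgfbr1, the type I receptor of transforming growth factor beta, was at 72.7 and 73.5 CPM in the controls against 87.2, 87.7 and 88.8 CPM under blue light. Its log2FC was 0.27 (SE 0.066, edgeR adjusted p = 0.128). Ntrk2, the receptor of brain-derived neurotrophic factor, was at 150 and 144 CPM against 168, 168 and 175 CPM (log2FC 0.21, SE 0.066, edgeR adjusted p = 0.192). Both genes were named for having the smallest p of the list in edgeR. Their blue light libraries lay close together and above both controls, as 15.6% of all tested genes lay above. The choice by p favours such separation.

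Rab22a, an endosomal GTPase, was at 19.1 and 17.8 CPM against 16.6, 15.3 and 14.0 CPM (log2FC -0.27, edgeR adjusted p = 0.320). The transcription factor Creb5 was at 9.15 and 13.5 CPM in the controls against 24.1, 12.9 and 17.2 CPM under blue light, with overlap (log2FC 0.67, SE 0.30). The transcription factor Meis2, a target described in eye development, ranged from 61.3 CPM in blue B to 121 CPM in control B (log2FC -0.12, SE 0.31); it was chosen after its values were seen.

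**Figure D4:**
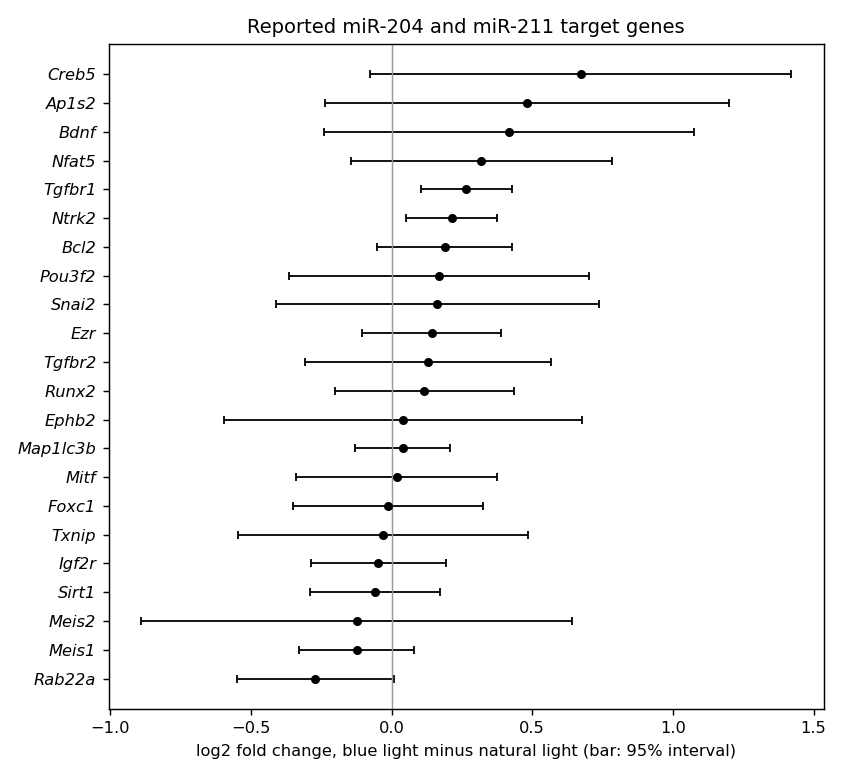
Log2FC (blue light minus natural light) of the 22 reported target genes with the 95% interval of edgeR's test, in order of size. Intervals of Tgfbr1 and Ntrk2 lie above 0 before adjustment over all genes, and the others span 0.

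Of 6 genes reported to control the hosts or the miRNAs, 1 was called, Stat3, a transcription factor of cytokine signalling that has been reported to lower miR-204. It rose from 82.1 and 88.3 CPM to 189, 238 and 206 CPM (log2FC 1.31, SE 0.12, edgeR adjusted p = 0.0159). In comparison, 0.664% of all tested genes were called higher and 1.55% lower. Of the 6, 3 had an unadjusted p under 0.05, DESeq2 called 2 and limma-voom 1, against 16.3%, 9.03% and 2.41% of all tested genes. The list's median log2FC was -0.00045. Pax6, a regulator of eye development that controls Trpm3 and miR-204 in the lens, was at 247 and 253 CPM against 323, 300.2 and 303 CPM (log2FC 0.30, SE 0.069, edgeR adjusted p = 0.107, DESeq2 adjusted p = 0.000170). Otx2, a factor of photoreceptors and pigment epithelium, was at 146 and 125 CPM against 98.3, 113 and 106 CPM (log2FC -0.36, edgeR adjusted p = 0.162). Mitf, the pigment cell factor that drives Trpm1, had a log2FC of 0.019, and its groups overlapped.

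Marker levels of cells known to carry these miRNAs were read beside them. Of 12 retinal pigment epithelium genes 0 were called in edgeR, while 3 had an unadjusted p under 0.05, and DESeq2 called 2 and limma-voom 0; none was at 0 throughout. Their summed level was 1450 to 1452 CPM in the controls against 1328 to 1549 CPM under blue light, with a median log2FC of -0.095. Of the 12, 9 had a negative and 3 a positive log2FC. Over all tested genes, 16.3% had an unadjusted p under 0.05 in edgeR, DESeq2 called 9.03% and limma-voom 2.41%. The retinoid isomerase Rpe65 was at 166 and 191 CPM against 137, 206 and 154 CPM. Otx2, given above, is also in this list and was lower in every blue light library (log2FC -0.36, edgeR adjusted p = 0.162). Stra6, the retinol-binding protein receptor, was at 51.9 and 54.1 CPM against 38.4, 42.1 and 39.6 CPM (log2FC -0.40, edgeR adjusted p = 0.0699), and Ttr, the retinol and thyroxine carrier, had a log2FC of 0.37 (edgeR adjusted p = 0.194).

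Of 10 melanosome genes 0 were called by edgeR, where 1 had an unadjusted p under 0.05, Tyr (log2FC 0.35, edgeR adjusted p = 0.131), while DESeq2 called 1 and limma-voom 0. All 10 had a positive log2FC, with a median of 0.19, and sums ran from 1366 to 1769 CPM in the controls against 1531 to 1884 CPM under blue light. Of 15 lens genes 0 were called by any of the 3 tools, with 0 at an unadjusted p under 0.05 in edgeR, and sums of 37000 to 37798 against 37609 to 39544 CPM. Of 13 ON bipolar genes, Trpm1 among them, 1 was called, the kinase Prkca, which fell by 0.79 (edgeR adjusted p = 0.0218). Of the 13, 6 had an unadjusted p under 0.05, DESeq2 called 5 and limma-voom 1, and 6 lay higher and 4 lower in every blue light library. Their median log2FC was 0.14, with sums of 1718 to 1765 against 1644 to 1913 CPM. Over all tested genes, 16.3% had an unadjusted p under 0.05 in edgeR, DESeq2 called 9.03% and limma-voom 2.41%. EdgeR called 1.55% lower, and 15.6% lay higher and 20.1% lower in every blue light library. The part of these cell types in the levels of miR-204, miR-211 and their hosts was not tested.

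Beside these, 1 of 7 neural retina miRNAs was called, miR-183-5p of photoreceptors, which fell by 1.13 (SE 0.16, edgeR adjusted p = 0.00945), from 106634 and 96908 CPM to 38599, 53591 and 47319 CPM. In the list 4 had an unadjusted p under 0.05, DESeq2 called 2 and limma-voom 1, against 11.9%, 1.72% and 0.624% of all tested miRNAs. EdgeR called 0.312% of all tested miRNAs lower. All 7 had a negative log2FC, with a median of -0.44, and 5 lay lower in every blue light library, against 13.6% of all tested miRNAs. The 7 summed to 276761 to 295869 CPM in the controls against 147259 to 198012 CPM under blue light, so a smaller part of each blue light library went to them. The 14 rod genes summed to 26313 to 27888 CPM in the controls against 5357 to 9745 CPM under blue light, and all 14 lay lower in every blue light library. The fall passed edgeR's test for 12 of them, limma-voom's for 12 and DESeq2's for 14. Over all tested genes, 20.1% lay lower in every blue light library, and edgeR called 1.55% lower. In either direction, limma-voom called 2.41% of all tested genes and DESeq2 9.03%. Among 6 miRNAs reported in pigment epithelium beside miR-204 and miR-211, 0 were called by edgeR, where 1 had an unadjusted p under 0.05, and DESeq2 and limma-voom called 0. That 1 was miR-221-3p, at 224 and 338 CPM against 414, 384 and 472 CPM (log2FC 0.59, edgeR adjusted p = 0.337).

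Patterns were compared among tested features with a mean of at least 10 CPM, without gene symbols of the Gm and Rik kinds. Each log2 CPM profile was centred on its mean over the 5 libraries. The features most like miR-204-5p, miR-211-5p or Trpm3 were those with the smallest root mean square (RMS) difference between profiles. For miR-204-5p these were miR-136-5p, miR-31-3p, miR-376b-3p, miR-346-5p and miR-376a-5p, with differences of 0.042 to 0.050, where the median over 392 miRNAs was 0.23. For miR-211-5p they were miR-423-3p, miR-92a-3p, miR-125a-5p, miR-423-5p and miR-181d-5p, with 0.060 to 0.089 and a median of 0.25. Among 10657 genes those most like Trpm3 were Agps, Sec11a, Cx3cl1, Dopey2 and Il11ra1, with 0.017 to 0.024 and a median of 0.16. With 5 libraries and members that vary little, such closeness describes these libraries alone. miR-204-5p was not among the 5 nearest to miR-211-5p, nor the reverse.

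**Figure D5:**
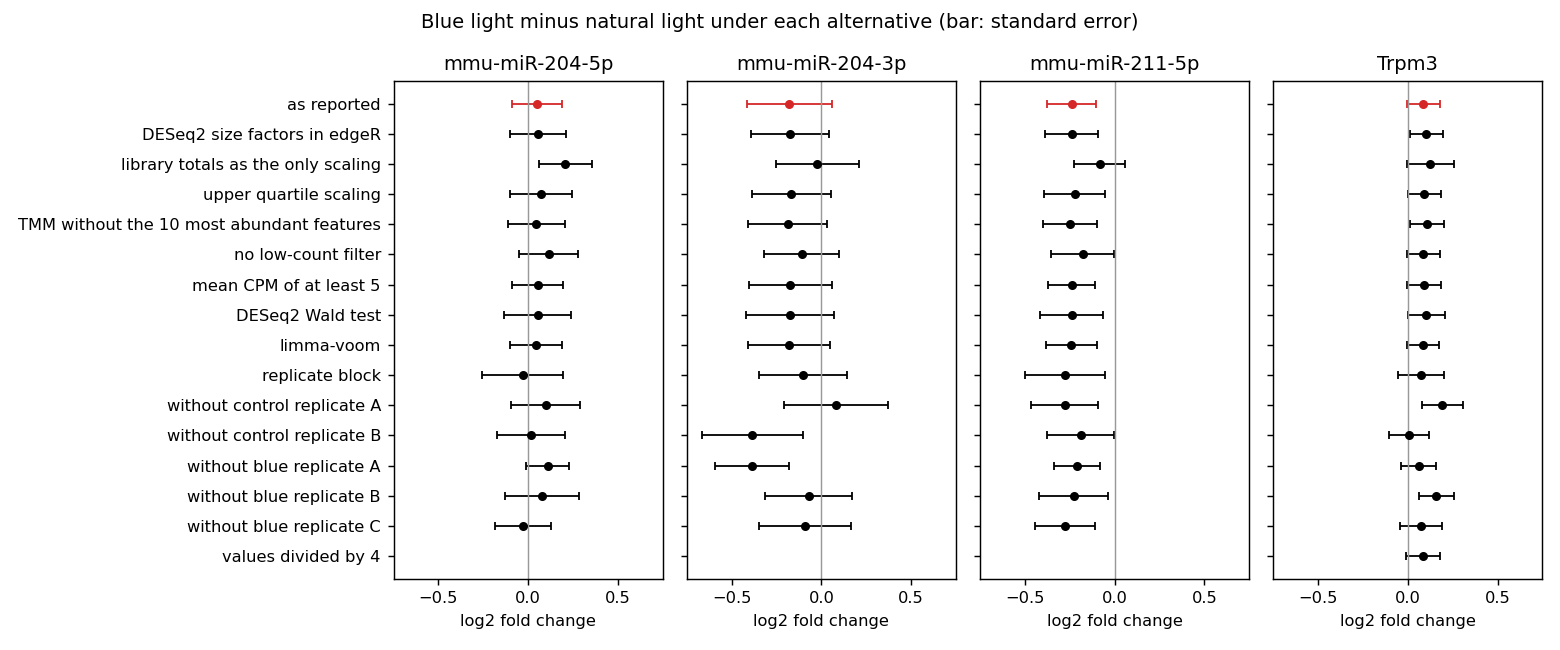
Log2FC of the 4 members (blue light minus natural light, bar: standard error) as reported and under each alternative of scaling, filter, tool, block or left-out library. miR-211-5p stays below 0 and Trpm3 above 0 in all settings drawn, while miR-204-5p and miR-204-3p cross 0 in 2 and 1 of them.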

How the data were processed

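The miRNA table holds whole-number counts per mature miRNA as the authors deposited them, not normalised. The mRNA table holds estimated counts per gene symbol, also as deposited by the authors and not normalised; they are whole numbers and were not rounded further. The build mm10 and the tools StringTie, HISAT2, limma, DESeq2 and bcl2fastq 2.0 appear, with no role, in the submitters' processing notes. Per the labels' protocols, RNA was extracted with Trizol, ribosomal RNA was depleted and primers were random; the protocol text is the same for both assays. The sources used here do not give the strand setting of the counting.

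Each column was assigned through its sample title. The 2 light conditions were compared, per assay, in edgeR 4.0.16 (R 4.3.3): filterByExpr by group, TMM scaling and the quasi-likelihood F-test across all features. DESeq2 1.42.0 and limma 3.58.1 (voom) were alternatives, with other scalings and filters, mRNA values divided by 4, the letter as a replicate block, and each library left out in turn. Ratios within libraries were compared by exact permutation, and the arm ratio of miR-211 was added after its values were seen. The pipeline was tested on simulated counts. Gene names, spans and miRNA sequences are from RefSeq (GRCm38). Named whatever their values were the members, miR-211-3p, Trpm1, the hairpin rows, seed mates, the TRPM family and the 3 nearest coding genes on each side of Trpm3. Also named were the 5 features nearest in pattern, the targets with the smallest p and up to 4 markers a list, again by smallest p. Rpe65, Grm6, Mitf and Meis2 were named outside these rules. Members and lists were chosen with earlier results of these data known.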

Additional observations from a re-analysis of the deposited data

How the results depend on the processing

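None of the 4 members was called under any alternative run. Their log2FC ranged from -0.030 to 0.21 for miR-204-5p, -0.39 to 0.081 for miR-204-3p, -0.28 to -0.084 for miR-211-5p and 0.0088 to 0.19 for Trpm3. With the letter as a replicate block miR-204-5p was at -0.030; leaving out 1 library gave -0.029 to 0.11 for miR-204-5p, -0.39 to 0.081 for miR-204-3p and -0.0032 to 0.19 for miR-211-3p. Over all miRNAs the count of calls was 4, and it was 32 without a low-count filter, 11 in DESeq2, 9 with the replicate block and 0 to 6 with 1 library left out. It was 0 in edgeR without control A, control B or blue B, where 31, 90 and 47 miRNAs had an unadjusted p under 0.05. Over all genes it was 421 (126 higher, 295 lower), 274 with library totals (124 higher, 150 lower), 1715 in DESeq2, 0 in edgeR with the replicate block (1455 at an unadjusted p under 0.05; 457 calls in limma-voom without the block), and 0 to 311 with 1 library left out. The lowest were 0 without control B (2872 at an unadjusted p under 0.05), 8 without control A and 11 without blue C, and 277 without blue B. The cause was not tested. Where 1 control was left, it was assumed to vary like the blue light libraries. Deviations from group means of same-lettered libraries correlated at -0.038 and -0.11 for miRNA and at -0.18 and -0.15 for mRNA. The deviations of control A and control B from their mean are exact opposites. These correlations therefore cannot decide whether libraries with the same letter share more than a name. Depth limits miR-211-3p, with 313 to 473 counts, and the hairpin rows of the mRNA table, with 62 to 195.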

Other observations

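Markers of the other tissues of an eyeball sample were read as lists too. Of 11 Muller glia genes 2 rose by edgeR's test, Slc1a3, a glutamate transporter, and Clu, a secreted chaperone (log2FC 0.87 and 1.0), where 0.664% of all tested genes were called higher. In this list 10 had an unadjusted p under 0.05, DESeq2 called 9 and limma-voom 3, against 16.3%, 9.03% and 2.41% of all tested genes. Every blue light library lay above both controls for 9 of the 11, against 15.6% of all tested genes, and below for 1, Glul, the glutamine synthetase (log2FC -0.48, edgeR adjusted p = 0.0537). The median log2FC was 0.51, with summed levels of 3956 to 4082 CPM in the controls and 4804 to 5326 CPM under blue light. Of 8 corneal epithelium genes and 11 skeletal muscle genes, edgeR, DESeq2 and limma-voom called 0, with 0 at an unadjusted p under 0.05 in edgeR. Corneal genes summed to 5552 to 6724 CPM against 5864 to 6947 CPM. Muscle genes summed to 562 and 1254 CPM in control A and B and to 1257, 592 and 603 CPM in blue A, B and C, so control B and blue A stood high.

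Among miRNAs, 0 of 8 listed for surface epithelium, 0 of 5 for muscle and 0 of 4 for red blood cells were called by edgeR, DESeq2 or limma-voom, with 0 at an unadjusted p under 0.05 in edgeR. Over all tested miRNAs these tools called 0.624%, 1.72% and 0.624%, and 11.9% had an unadjusted p under 0.05 in edgeR. In the surface epithelium list 1, miR-205-5p, lay higher in every blue light library, against 14.8% of all tested miRNAs. The surface epithelium miRNAs summed to 101758 to 107240 CPM in the controls and 79926 to 113161 CPM under blue light, mostly miR-184-3p (95744 and 97200 CPM against 101360, 80876 and 71303 CPM). Muscle miRNAs summed to 11298 and 18090 CPM in control A and B and to 22118, 16056 and 17803 CPM in blue A, B and C. Red blood cell miRNAs summed to 536 to 545 CPM against 405 to 559 CPM.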
